A study of Mus musculus with 9 samples.

Results

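The 96 genes described here are the chaperone and heat shock genes of the table: HSP70, HSP90, small heat shock, J-domain (Dnaj), chaperonin CCT, BAG and FK506-binding (Fkbp) genes, the Pdia disulfide isomerases, calreticulin, calnexin, Hyou1 and the heat shock factors Hsf1 and Hsf2. They were chosen by gene symbol from 11046 genes, and all 96 were among the 11037 genes with enough counts to test. By the compartment where the proteins are known to work, 51 were assigned to the cytosol and nucleus, 28 to the endoplasmic reticulum and 11 to mitochondria. Hsf1 and Hsf2 were kept apart as regulators, and 4 genes, among them Hspa12b and Hspbap1, were given no compartment.

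RNA was sequenced from 3 mouse tumour cell lines growing in culture, with 3 libraries, A, B and C, for each. 482N1 is a non-small-cell lung cancer line, B16F10-BrM is a brain-metastatic derivative of the B16F10 melanoma line, and E0771-BrM is a brain-metastatic derivative of the E0771 breast cancer line. All were labelled wild type and received no treatment. Serum and antibiotics were the same for all, but E0771-BrM grew in RPMI 1640 with HEPES and both other lines in DMEM, so for E0771-BrM the line and its medium cannot be told apart. Each line also stands for 1 tumour type, so tissue of origin, mutations and selection for brain metastasis cannot be told apart either. The labels do not say whether A, B and C were separate cultures, so the p-values measure only the spread between these libraries, which may be technical.

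Chaperones bind unfolded or partly folded proteins and release them in cycles driven by ATP. In the cytosol, HSP70 proteins take clients from J-domain proteins, nucleotide exchange factors such as the BAG proteins free them, and HSP90 and the ring-shaped chaperonin CCT (also called TRiC) finish folding steps for kinases, steroid receptors, actin and tubulin. The heat shock factor Hsf1 switches on many of these genes when proteins unfold in the cytosol. The reticulum holds its own set, led by Hspa5 (BiP), Hsp90b1 (GRP94), calreticulin and calnexin, which are switched on by the unfolded protein response when secretory cargo is misfolded. Mitochondria import their proteins unfolded and fold them with Hspa9 (mortalin) and the Hspd1-Hspe1 chamber (HSP60 and HSP10).

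Library totals ran from 7332390 to 9293348 counts. Values are given as CPM, a gene's counts relative to the library's total as scaled with edgeR's TMM factors, as mean ± SD over the 3 libraries of a line. A gene was called when its Benjamini-Hochberg adjusted p in edgeR's quasi-likelihood F test, fitted on all 9 libraries and adjusted over all 11037 genes, was under 0.05. Of the labelled lineages, the melanocyte markers found in the table (Dct, Pmel, Tyrp1, Mitf and Gpnmb) summed to between 24633 and 25482 CPM in B16F10-BrM. The keratin Krt18 had at least 32601 counts in each 482N1 library, 0 in B16F10-BrM and between 0 and 6 in E0771-BrM, while its partner Krt8 had 3512 ± 132, 0.0807 ± 0.07 and 188 ± 18.7 CPM in the same order. The breast-associated genes Gata3, Erbb2 and Areg were lower in the breast cancer line E0771-BrM (1.4 ± 0.27, 5.62 ± 1.09 and 47.5 ± 7.57 CPM) than in the lung line 482N1 (2.92 ± 0.69, 23.2 ± 3.38 and 74.2 ± 8.39 CPM), so these markers did not set the breast line apart. Of the genes taken as lung markers, Foxa1, Ctsh and Abca3 were highest in 482N1, at 40.3 ± 0.0966, 113 ± 12.3 and 22.3 ± 1.41 CPM. They had 0.534 ± 0.16, 4.07 ± 0.9 and 10.9 ± 2.44 CPM in B16F10-BrM and 2.39 ± 0.565, 2.45 ± 0.65 and 0.122 ± 0.12 CPM in E0771-BrM. The lung markers Nkx2-1 and Sftpc and the basal keratins Krt5 and Krt14 were not analysed here. The same melanocyte list summed to 27.9, 2.77 and 28.1 CPM in libraries A, B and C of 482N1 and to 162, 103 and 137 CPM in those of E0771-BrM. Dct alone stood at no more than 0.109% of its B16F10-BrM mean in 482N1 and 0.26% in E0771-BrM, lowest in library B of each. The calls were therefore repeated with library B as the sole library of both 482N1 and E0771-BrM (below, the library B setting). The ribosomal RNA gene Rn18s took 11.6% to 13.1% of counts in 482N1 and 6.4% to 8.36% in the other lines, and removing the ribosomal RNA genes moved no count of called chaperone genes by over 1.5 times.

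Chaperone genes as a whole took the smallest share of reads in 482N1 and the largest in E0771-BrM. They made up 2.25% to 2.34% of unscaled counts in the 482N1 libraries, 3.06% to 3.14% in B16F10-BrM and 3.58% to 3.77% in E0771-BrM, with no overlap between lines. After scaling they summed to 25827 ± 351, 29406 ± 239 and 34587 ± 1132 CPM in 482N1, B16F10-BrM and E0771-BrM. The order was the same, with a relatively smaller step from 482N1 to B16F10-BrM. Reticulum chaperones summed to 4236, 4467 and 4517 CPM in 482N1, to 8173, 8279 and 8351 CPM in B16F10-BrM and to 7808, 8259 and 8047 CPM in E0771-BrM. The 482N1 libraries thus lay below all the others for this compartment, while the ranges of B16F10-BrM and E0771-BrM overlapped. Mitochondrial chaperones summed to 1097 ± 22.6 CPM in 482N1, 2119.9 ± 63.9 CPM in B16F10-BrM and 1565 ± 32.6 CPM in E0771-BrM (n = 3 each), with the highest level in B16F10-BrM and no overlap. On the CPM scale, cytosolic chaperones followed another order, with 20268 ± 414 CPM in 482N1, 18956 ± 384 CPM in B16F10-BrM and 24897 ± 915 CPM in E0771-BrM. This order depended on the scaling. Of unscaled counts, they made up 1.75% to 1.85% in 482N1, 1.95% to 2.04% in B16F10-BrM and 2.56% to 2.73% in E0771-BrM, with 482N1 lowest. A single gene, Hsp90ab1, carried 59.1% ± 0.368 of the cytosolic sum in 482N1, 38.9% ± 1.1 in the melanoma line B16F10-BrM and 47.5% ± 0.625 in the breast cancer line E0771-BrM. Without Hsp90ab1 the cytosolic sum was 8297 ± 106, 11583 ± 44.8 and 13069 ± 339.6 CPM, so that 482N1 was the lowest in all 3 compartments. In bulk RNA, a change in the level of every cell and a change in the share of cells that express a gene cannot be told apart.

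**Figure D1:**
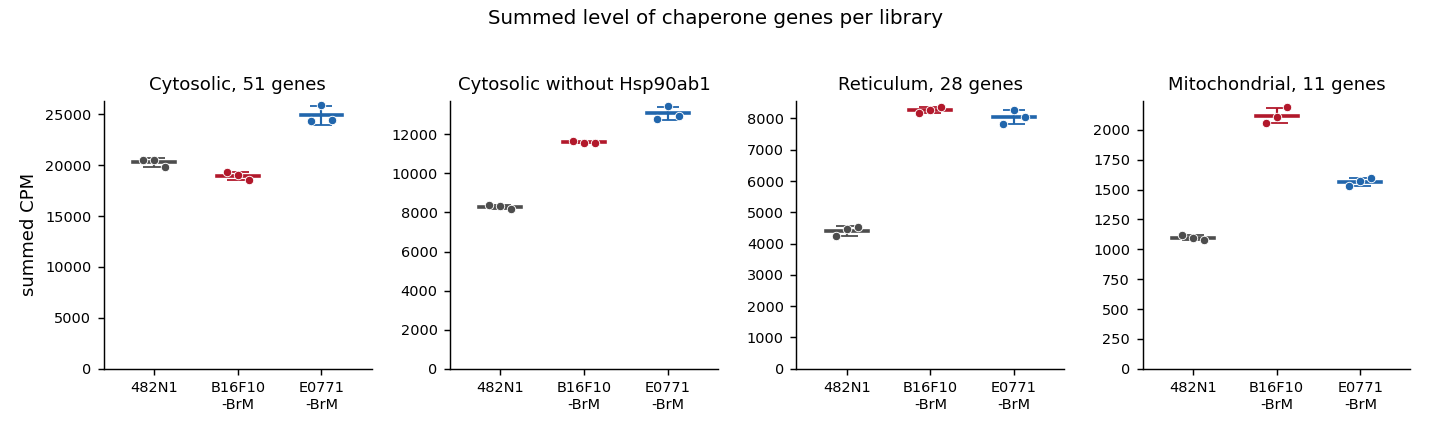
Summed CPM of the chaperone genes of each compartment (vertical axis, from 0) in the 9 libraries, by cell line (horizontal axis). Points are libraries, thick lines means and whiskers 1 SD (n = 3). Reticulum sums were 4407 ± 150.0 CPM in 482N1 against 8267 ± 89.6 in B16F10-BrM and 8038 ± 226 in E0771-BrM. The cytosolic order changed when Hsp90ab1 was left out.

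Most genes differed between these lines, so counts of called genes have to be read against the background. Between B16F10-BrM and 482N1, 77.8% of all genes tested were called, 38.0% higher and 39.9% lower in B16F10-BrM. Of the 96 chaperone genes, 50 were higher, 30 lower and 16 not called, with a median log2 fold change of 0.32 against -0.04 over all genes. Between E0771-BrM and 482N1, 78.1% of all genes were called, 37.7% higher and 40.4% lower, and the chaperone genes gave 47 higher, 32 lower and 17 not called, with a median of 0.33 against -0.04. Between E0771-BrM and B16F10-BrM, 73.7% of all genes were called, 37.2% higher and 36.5% lower, and 38 chaperone genes were higher, 36 lower and 22 not called, with a median of 0.03 against 0.02. The share called in either direction, 83.3%, 82.3% and 77.1% in this order, was close to the background. Every pair of these comparisons shares the libraries of a line, so their counts are not independent.

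Counts by compartment are to be read against the shares of all genes just given, and the difference between compartments was not tested. Of the 28 reticulum genes, 18 were higher and 6 lower in B16F10-BrM than in 482N1, with a median log2 fold change of 0.63, and 13 were higher and 9 lower in E0771-BrM than in 482N1, with a median of 0.15. Of the 11 mitochondrial genes, 6 were higher and 4 lower in the first of these comparisons and 5 higher and 4 lower in the other, with medians of 0.62 and 0.19. The second of these medians was 0.314 without library B and 0.118 without library C of E0771-BrM, 0.121 without its library A, 0.119 without library C of 482N1 and 0.025 in the library B setting. Of the 51 cytosolic genes, 23 were higher and 20 lower in B16F10-BrM at a median of -0.02, and 27 were higher and 19 lower in E0771-BrM, with a median of 0.39. Between E0771-BrM and B16F10-BrM, the cytosolic genes gave 25 higher and 16 lower, the reticulum genes 6 higher and 14 lower and the mitochondrial genes 4 higher and 4 lower, with medians of 0.30, -0.22 and 0.03, the last of which changed sign without library A of E0771-BrM (-0.012). Genes described by these counts alone had log2 fold changes between -1.13 and 1.73. Hspa12b, a divergent HSP70 relative given no compartment, had 11, 19 and 6 counts in 482N1, 17, 10 and 9 in B16F10-BrM and 49, 58 and 44 in E0771-BrM, the high line for this gene.

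A gene was placed highest or lowest in a line when both pairwise comparisons with the other lines called it so. Of the chaperone genes, 22 were highest in 482N1 (26.3% of all genes tested were), 25 in B16F10-BrM (21.0% of all genes) and 26 in E0771-BrM (20.7% of all genes). Lowest in 482N1 were 35 of the 96, or 36.5%, beside 24.2% of all genes. Lowest in B16F10-BrM were 15 (22.5% of all genes) and lowest in E0771-BrM another 15 (21.1% of all genes). Of the 35 genes lowest in 482N1, 19 were cytosolic, 11 reticulum and 5 mitochondrial. Dnajc14, a membrane-bound J-domain protein of the reticulum, was the 1 chaperone gene called in no comparison, with 18.5 ± 2.05 CPM in 482N1, 15.2 ± 0.87 in the melanoma line B16F10-BrM and 15.6 ± 1.83 in the breast cancer line E0771-BrM. It was called lower in B16F10-BrM than in 482N1 without library C of 482N1 (-0.34, adjusted p = 0.049) and in the library B setting (-0.45, adjusted p = 0.0373).

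**Figure D2:**
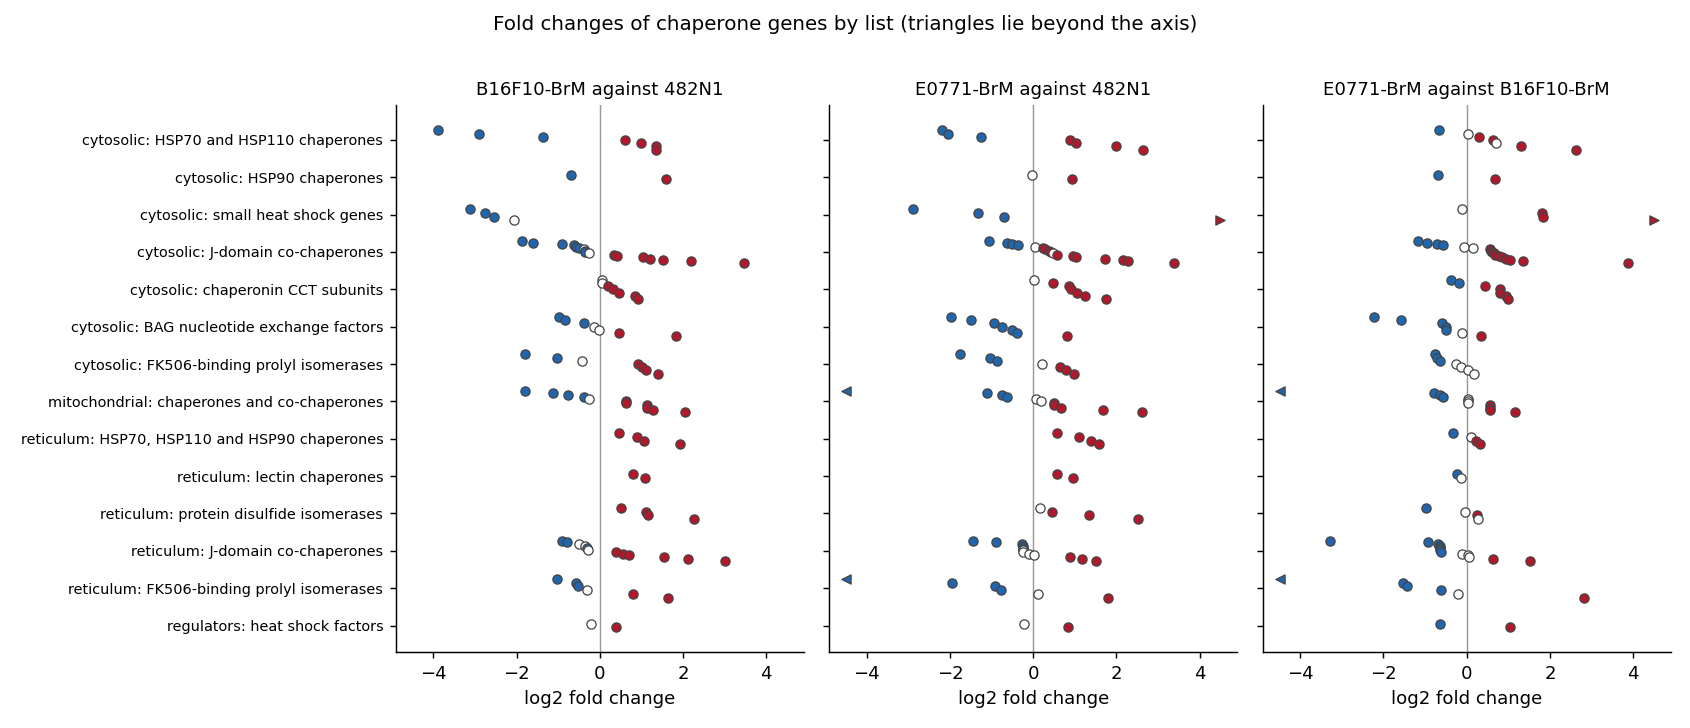
Log2 fold changes (horizontal axis) of 92 chaperone genes, grouped by list (vertical axis), in the 3 pairwise comparisons. Each point is 1 gene, red when called higher, blue when called lower and white when not called (edgeR adjusted p under 0.05). Triangles at the edge are Hspb8, Dnajc28 and Fkbp14, whose fitted values lie beyond the axis. The HSP70, HSP90, lectin and Pdia genes of the reticulum lay above 0 in both comparisons with 482N1, while most other lists had genes on both sides.

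The cytosolic HSP90 genes differed in opposite directions between the lines. Hsp90aa1, the stress-inducible form, had 1071, 1059 and 1042 CPM in 482N1, 3184, 3187 and 3221 CPM in B16F10-BrM and 1933, 2133 and 1941 CPM in E0771-BrM. It was 3.02-fold higher in B16F10-BrM than in 482N1, a log2 fold change of 1.60 ± 0.07 (SE; adjusted p = 1.3e-26), and 1.89-fold higher in E0771-BrM. Hsp90ab1, the constitutive form, had 12140.0, 12162 and 11609 CPM in 482N1, 7643, 7503 and 6971 CPM in B16F10-BrM and 11534, 12497 and 11447 CPM in E0771-BrM. B16F10-BrM was the low line for Hsp90ab1, with a log2 fold change against 482N1 of -0.70 ± 0.07 (adjusted p = 1.86e-13), and the ranges of 482N1 and E0771-BrM overlapped. The ratio of Hsp90aa1 to Hsp90ab1 counts was 0.0883 ± 0.00134 in 482N1, 0.169 ± 0.00155 in E0771-BrM and 0.434 ± 0.0242 in B16F10-BrM. Per kilobase of exon, a scale on which genes can be compared, the level of Hsp90ab1 was the highest of the chaperone genes in every line, at 4750.1 ± 124, 2926 ± 141 and 4693 ± 231 CPM per kilobase in 482N1, B16F10-BrM and E0771-BrM.

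Of the 7 cytosolic HSP70 and HSP110 genes, 4 were called higher and 3 lower than in 482N1, in B16F10-BrM as well as in E0771-BrM. Of all genes, 38.0% were higher and 39.9% lower in B16F10-BrM, and 37.7% and 40.4% in E0771-BrM. Hspa8, the constitutive HSC70, had 374, 424 and 415 CPM in 482N1, 1075, 1022 and 1026 CPM in B16F10-BrM and 1621, 1594 and 1626 CPM in E0771-BrM. The lines formed 3 separate levels, and E0771-BrM stood 3.99-fold above 482N1 (log2 fold change 2.00 ± 0.07, adjusted p = 1.05e-29). Hspa1b, a stress-inducible HSP70 gene, was highest in 482N1 instead, at a low level, with 9.29, 8.3 and 9.25 CPM in 482N1, 1.56, 0.753 and 1.17 CPM in B16F10-BrM and 1.4, 2.28 and 2.12 CPM in E0771-BrM. It was 7.71-fold lower in B16F10-BrM (log2 fold change -2.90 ± 0.30, adjusted p = 2.14e-12) and 4.63-fold lower in E0771-BrM. Its near-identical copy Hspa1a was not analysed here, and how reads shared by such copies were counted is not given in the sources used here, so the value is uncertain. Hspa2, an HSP70 best known from the male germ line, was also highest in 482N1, at 20.9 ± 4.08 CPM against 8.09 ± 1.15 and 5.08 ± 1.87 CPM in B16F10-BrM and E0771-BrM. Its difference between E0771-BrM and B16F10-BrM, -0.67 ± 0.22 on the log2 scale, was no longer called without library A of E0771-BrM (-0.50, adjusted p = 0.0605).

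HSP110 proteins act as nucleotide exchange factors for HSP70 and hold unfolded clients. Of their cytosolic genes, Hspa4l and Hsph1 differed in opposite directions. Another, Hspa4, had 72.5 ± 7.16, 145 ± 4.35 and 149 ± 8.47 CPM per kilobase of exon in 482N1, B16F10-BrM and E0771-BrM. On that scale it lay above Hspa4l and Hsph1 in every line. This order depends on the exon lengths used, 4618 bases for Hspa4, 9618 for Hspa4l and 4223 for Hsph1. Hspa4l had 469, 495 and 495 CPM in 482N1, 28, 35.3 and 36.5 CPM in B16F10-BrM and 201, 195 and 215 CPM in E0771-BrM. It was 14.6-fold lower in B16F10-BrM than in 482N1, with a log2 fold change of -3.88 ± 0.09 (adjusted p = 2.09e-37), the lowest of the chaperone genes in that comparison. Hsph1 (HSP105) ran the other way, with 45.4, 47.3 and 50.4 CPM in 482N1, 116, 121 and 127 CPM in B16F10-BrM and 278, 316 and 303 CPM in E0771-BrM. Its log2 fold changes against 482N1 were 1.35 ± 0.08 in B16F10-BrM and 2.65 ± 0.08 in E0771-BrM (adjusted p = 8.85e-20 and 1.63e-31). The ratio of Hspa4l to Hsph1 was 10.2 ± 0.347 in 482N1, 0.273 ± 0.0275 in the melanoma line B16F10-BrM and 0.684 ± 0.0567 in the breast cancer line E0771-BrM, so the gene with more reads of the pair was Hspa4l in 482N1 and Hsph1 in the other lines.

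Small heat shock proteins bind unfolded clients without ATP. Hspb8 had 3082, 3126 and 3054 counts in the E0771-BrM libraries, or 382 ± 8.13 CPM, while B16F10-BrM held 1 count in all and 482N1 held 5, all in library A. Over the summed counts, E0771-BrM was 1830.5-fold above 482N1 (95% interval 784 to 5639) and 9995-fold above B16F10-BrM (1793 to 394808), with exact intervals that cover counting error only. Hspb1 (HSP25, the mouse HSP27) had 187, 185 and 174 CPM in 482N1, 32.9, 36.4 and 24 CPM in B16F10-BrM and 119, 112 and 104 CPM in E0771-BrM. B16F10-BrM was the low line, 5.86-fold below 482N1 (log2 fold change -2.55 ± 0.10, adjusted p = 4.56e-26). Hspb6 (HSP20) was high in 482N1 alone, with 50.1 ± 2.33 CPM against 7.36 ± 0.47 in B16F10-BrM and 6.79 ± 1.0 in E0771-BrM, where the ranges overlapped. Hspb11, which shares the name but is a subunit of the intraflagellar transport machinery of cilia, had 23.6 ± 4.03, 2.68 ± 0.812 and 9.38 ± 1.44 CPM and was 8.81-fold lower in B16F10-BrM than in 482N1.

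**Figure D3:**
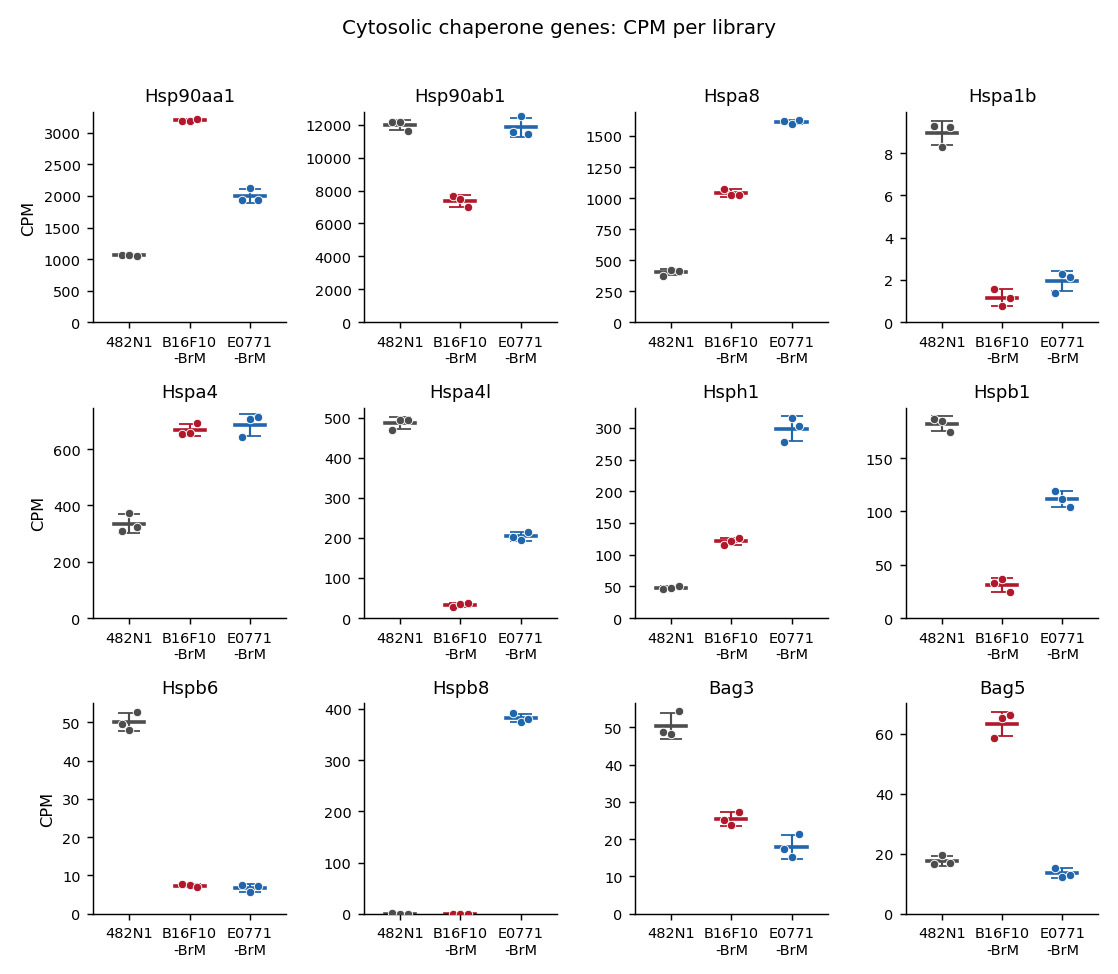
CPM (vertical axes, from 0, each gene on its own scale) of 12 cytosolic chaperone genes in the 9 libraries by cell line (horizontal axis). Points are libraries, thick lines means and whiskers 1 SD (n = 3). Hsp90aa1 and Bag5 were highest in B16F10-BrM, Hspa8, Hsph1 and Hspb8 in E0771-BrM, and Hspa1b, Hspa4l, Hspb1, Hspb6 and Bag3 in 482N1.

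BAG proteins release clients from HSP70 and link it to other machines. The list of cytosolic exchange factors held 7 genes, the 6 Bag genes and Hspbp1, an exchange factor that is not a BAG protein. Against 482N1, 6 of the 7 were lower in E0771-BrM (40.4% of all genes were). Of the 3 lines, E0771-BrM was lowest for 5 of the 7 (21.1% of all genes were lowest there). Hspbp1 was among them in both counts, at 31.8 ± 5.14, 31.4 ± 3.84 and 22.3 ± 0.975 CPM in 482N1, B16F10-BrM and E0771-BrM. Bag3, the partner of Hspb8 in selective autophagy, had 48.6, 48.1 and 54.4 CPM in 482N1, 25.2, 23.7 and 27.3 CPM in B16F10-BrM and 17.3, 15.2 and 21.4 CPM in E0771-BrM. It was thus at its lowest, 2.8-fold below 482N1 (log2 fold change -1.49 ± 0.12, adjusted p = 2.39e-15), in the line where Hspb8 was at its highest. Bag2, a co-chaperone of HSP70, had 15.4 ± 1.94, 11.8 ± 2.28 and 3.92 ± 0.24 CPM in 482N1, B16F10-BrM and E0771-BrM. Its difference between B16F10-BrM and 482N1 (-0.37 ± 0.17, adjusted p = 0.0451) did not hold without library C of 482N1 (adjusted p = 0.209), without library A (adjusted p = 0.0955) or B (adjusted p = 0.225) of B16F10-BrM, or with DESeq2 (adjusted p = 0.0773), and the ranges overlapped. Bag5 stood out in B16F10-BrM, with 58.8, 65.2 and 66.2 CPM against 16.5, 19.5 and 16.9 in 482N1 and 15.4, 12.4 and 12.8 in E0771-BrM. It was 3.6-fold higher in B16F10-BrM than in 482N1 (log2 fold change 1.84 ± 0.12, adjusted p = 2.11e-19). The smaller difference of Bag5 between E0771-BrM and 482N1, -0.39 ± 0.14, was lost without library B of 482N1 (-0.30, adjusted p = 0.065) or library B of E0771-BrM (-0.32, adjusted p = 0.0518). Bag1, which also binds the proteasome, was the 1 gene of the list that was higher in E0771-BrM than in 482N1, at 137 ± 5.4 against 77.7 ± 2.18 CPM. Bag6, a triage factor for membrane proteins, had 75.9 ± 9.11, 68.1 ± 3.16 and 45.1 ± 1.76 CPM, lower in E0771-BrM than in either other line.

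The chaperonin CCT is built from 8 different subunits in equal numbers, 7 of which carry the Cct symbol, and the eighth is Tcp1. Of the 7, 6 were higher in E0771-BrM than in 482N1 (37.7% of all genes were) and none was lower. Of the 3 lines, E0771-BrM was highest for 5 of the 7 (20.7% of all genes were highest there). Cct6a had 164, 169.9 and 187 CPM in 482N1, 319, 322 and 350.5 CPM in B16F10-BrM and 553, 598 and 585 CPM in E0771-BrM, where it was 3.33-fold above 482N1 (log2 fold change 1.74 ± 0.07, adjusted p = 2.89e-26). Cct2, Cct3, Cct4 and Cct8 were 1.83-fold, 2.38-fold, 2.08-fold and 1.87-fold higher in E0771-BrM than in 482N1. Cct7 was highest in B16F10-BrM instead, with 807, 698 and 655 CPM against 558, 547 and 555 in E0771-BrM and 409, 413 and 381 in 482N1. Cct5 differed little, with 421 ± 27.7, 481 ± 2.46 and 423 ± 32.4 CPM in 482N1, B16F10-BrM and E0771-BrM. Its log2 fold change of 0.19 ± 0.07 between B16F10-BrM and 482N1 was not called without library C of 482N1 (0.14, adjusted p = 0.104), nor its -0.18 ± 0.07 between E0771-BrM and B16F10-BrM without library A of E0771-BrM (-0.13, adjusted p = 0.142). Tcp1 was called in no comparison, with 292 ± 16.5, 292 ± 4.82 and 312 ± 14 CPM. The 7 Cct genes together gave 2127 ± 51.4 CPM in 482N1, 2889 ± 47.6 in the melanoma line B16F10-BrM and 3799 ± 91 in the breast cancer line E0771-BrM, while the log2 fold changes of single subunits between E0771-BrM and 482N1 ran from 0.01 to 1.74.

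**Figure D4:**
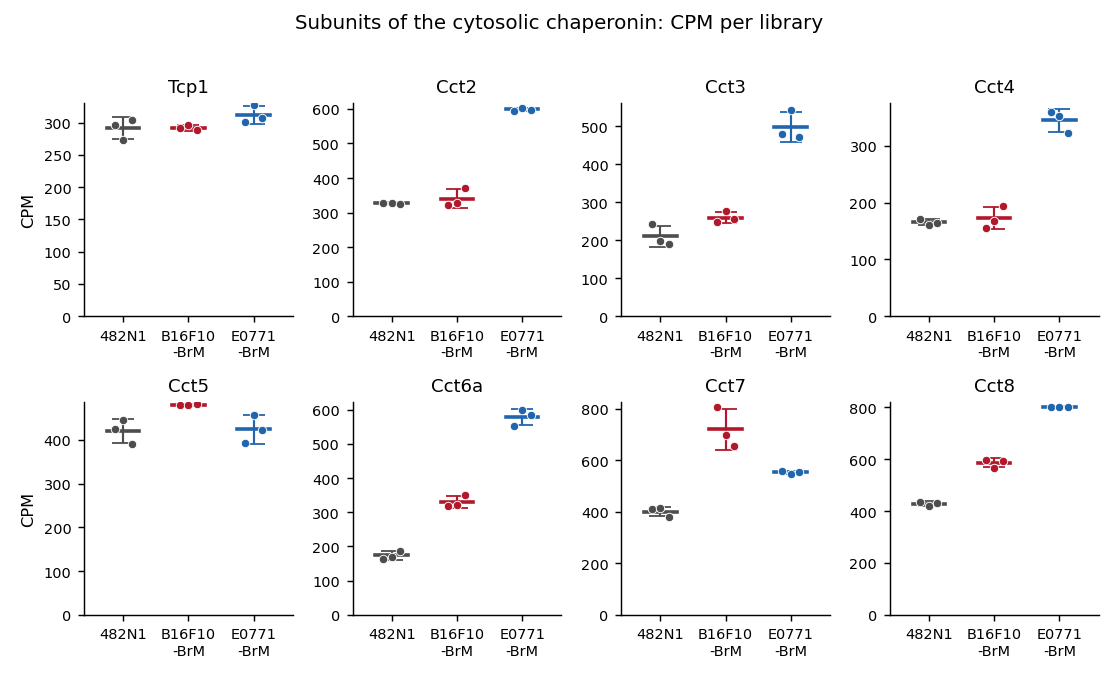
CPM (vertical axes, from 0, each gene on its own scale) of the subunits of the cytosolic chaperonin in the 9 libraries by cell line (horizontal axis). Points are libraries, thick lines means and whiskers 1 SD (n = 3). Cct2, Cct3, Cct4, Cct6a and Cct8 were highest in E0771-BrM and Cct7 in B16F10-BrM, while Tcp1 lay between 273 and 328 CPM in all libraries.

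J-domain proteins bring clients to HSP70 and start its ATP cycle. Of the 17 cytosolic ones, 7 were higher and 8 lower in B16F10-BrM relative to 482N1 (38.0% and 39.9% of all genes). In E0771-BrM, 11 were higher and 4 lower than in 482N1 (37.7% and 40.4% of all genes). Dnaja1 (HSP40 type A) and Dnajb1 (type B), the main partners of cytosolic HSP70, went different ways in B16F10-BrM. Dnaja1 had 90.8, 90.4 and 94.2 CPM in 482N1 and 259, 254 and 279 CPM in B16F10-BrM, 2.88-fold higher (log2 fold change 1.53 ± 0.08, adjusted p = 1.78e-23). Dnajb1 had 83.1, 68.8 and 78.1 CPM in 482N1 and 45.4, 58.3 and 45.2 CPM in B16F10-BrM, 1.54-fold lower (log2 fold change -0.63 ± 0.11, adjusted p = 1.59e-06). In E0771-BrM both were above 482N1, at 178 ± 7.71 and 103 ± 14.9 CPM. Dnajb4, another type B protein, was lowest in B16F10-BrM, at 12.5 ± 1.65 CPM against 45.6 ± 2.72 in 482N1 and 31.8 ± 2.84 in E0771-BrM.

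Several J-domain genes with more specialised roles differed widely. Dnajc2 (MPP11), which works at the ribosome, had 152, 157 and 138 CPM in 482N1, 328, 338 and 357 CPM in B16F10-BrM and 639, 701 and 642 CPM in E0771-BrM, 3 separate levels with a 4.44-fold difference between the ends. Dnajc9, a histone chaperone, was highest in B16F10-BrM, with 121 ± 5.23 CPM against 26.4 ± 1.8 in 482N1 and 54.3 ± 2.06 in E0771-BrM (4.61-fold above 482N1, adjusted p = 4.14e-26). Dnajc27, which pairs a J domain with a small GTPase fold, had 5, 2 and 9 counts in 482N1, 81, 54 and 63 in B16F10-BrM and 56, 63 and 55 in E0771-BrM. It was low in 482N1 alone (log2 fold changes 3.47 ± 0.34 and 3.39 ± 0.34 in B16F10-BrM and E0771-BrM, adjusted p = 5.02e-13 and 1.55e-12). Dnajc12, a co-chaperone of the aromatic amino acid hydroxylases, was highest in E0771-BrM, with 66, 44 and 72 counts there, 10, 8 and 19 in 482N1 and 4, 3 and 6 in B16F10-BrM. Its difference between B16F10-BrM and 482N1 (-1.61 ± 0.51, adjusted p = 0.00394) was lost without library C of 482N1 (-1.15, adjusted p = 0.069).

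The cytosolic Fkbp genes encode prolyl isomerases. Fkbp4 (FKBP52) and Fkbp5 (FKBP51), which compete for HSP90 in steroid receptor complexes, were both lowest in 482N1. Fkbp4 had 246, 218 and 197 CPM in 482N1, 527, 484 and 405 CPM in B16F10-BrM and 430.3, 482 and 385 CPM in E0771-BrM, and Fkbp5 had 15.4 ± 3.19, 31.4 ± 3.08 and 26.5 ± 1.69 CPM in the same order. For both genes B16F10-BrM and E0771-BrM overlapped and did not pass the test (adjusted p = 0.231 and 0.0758). Fkbp4 was called lower in E0771-BrM than in B16F10-BrM without library C of B16F10-BrM (-0.22, adjusted p = 0.0219) or library B of E0771-BrM (-0.21, adjusted p = 0.0489), and Fkbp5 without library B of B16F10-BrM (-0.32, adjusted p = 0.0357). The ratio of Fkbp5 to Fkbp4 counts was 0.0708 ± 0.0179, 0.0673 ± 0.0121 and 0.0615 ± 0.00297, within the spread of the libraries. Fkbp1b, a partner of ryanodine receptors, was highest in 482N1 at 5.8 ± 1.06 CPM, against 1.66 ± 0.302 and 1.69 ± 0.169 CPM in B16F10-BrM and E0771-BrM.

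Both heat shock factors were expressed at low to moderate levels in every library. Hsf1, the main activator of the heat shock response, had 10.8, 10.1 and 10 CPM in 482N1, 16.5, 11.8 and 12.5 CPM in B16F10-BrM and 7.61, 10.7 and 8.1 CPM in E0771-BrM. Its 1.32-fold higher level in B16F10-BrM than in 482N1 (log2 fold change 0.40 ± 0.18, adjusted p = 0.0362) rested on library A of B16F10-BrM, without which the log2 fold change was 0.23 (adjusted p = 0.285), and it was not called by DESeq2 (adjusted p = 0.0621), nor without library B (adjusted p = 0.0756) or C (adjusted p = 0.0763) of 482N1. Hsf2, a related factor that can form mixed trimers with Hsf1, had 37.5, 38.8 and 28.5 CPM in 482N1, 27.3, 33.4 and 30.2 CPM in B16F10-BrM and 61.7, 66.3 and 58.8 CPM in E0771-BrM. E0771-BrM lay above all other libraries, with log2 fold changes of 0.83 ± 0.11 against 482N1 and 1.04 ± 0.11 against B16F10-BrM (adjusted p = 3.32e-09 and 9.8e-12). These are transcript levels, and heat shock factors are known to be controlled largely at the protein.

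Heat shock factors bind inverted repeats of the unit GAA. The window from 250 bases before to 50 bases after each annotated start, from RefSeq on GRCm38.p6, was matched by symbol for 77 of the 96 genes and searched on both strands for 3 units in alternating orientation 2 bases apart, GAANNTTCNNGAA or TTCNNGAANNTTC. This element was in the windows of 4 of the 77 chaperone genes (5.19%), Hspd1, Hspe1, Hsph1 and Dnajb6. It was in 179 of 27025 genes with a window (0.662%) and in 46 of the 8578 genes tested with a window (0.536%). The 19 genes without a window, among them Hsp90aa1, Hsp90ab1 and Hspa8, were not searched. Hspa1b, Dnajb1, Hspb1 and Bag3 had a window and no match to this pattern. Hspd1 and Hspe1 lie head to head, so that their windows overlap by 285 bases and hold the same element. In Dnajb6, a J-domain protein that prevents aggregation, the match was at position -46 from 1 of the annotated starts, and in Hsph1 it lay after the start. The 2 stretches below are printed 5′ to 3′ along the gene named, with the matched bases in capitals, to show the 2 overlapping matches shared by the mitochondrial pair beside the single match of Dnajb6.
Hspe1 (GRCm38.p6 chr1:55088054-55088081, plus strand): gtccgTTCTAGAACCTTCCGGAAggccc
Dnajb6 (GRCm38.p6 chr5:29735847-29735869, plus strand): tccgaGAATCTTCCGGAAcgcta

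The mitochondrial pair behind this shared element moved together. Hspd1 (HSP60), the folding chamber, had 410.4, 414 and 378 CPM in 482N1, 935, 969 and 1029 CPM in B16F10-BrM and 529, 588 and 592 CPM in E0771-BrM. Hspe1 (HSP10), its lid, had 273, 238 and 249 CPM in 482N1, 545, 553 and 574 CPM in B16F10-BrM and 347, 375 and 360.3 CPM in E0771-BrM. For both, the lines formed 3 separate levels with B16F10-BrM at the top, and the log2 fold changes against 482N1 were 1.29 ± 0.07 and 1.14 ± 0.07 in B16F10-BrM (adjusted p = 5.83e-22 and 8.96e-20) and 0.51 ± 0.07 for each gene in E0771-BrM. The ratio of Hspd1 to Hspe1 counts was 1.59 ± 0.134, 1.75 ± 0.039 and 1.58 ± 0.0604. The other carriers of a match did not share this order: Hsph1 was highest in E0771-BrM, and Dnajb6 was highest in 482N1, at 489.8 ± 23.4 against 259 ± 15.4 and 381 ± 8.71 CPM in B16F10-BrM and E0771-BrM.

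Hspa9 (mortalin), the HSP70 that pulls proteins into the matrix, had 235, 249 and 251 CPM in 482N1, 371, 381 and 381 CPM in B16F10-BrM and 401, 371 and 394 CPM in E0771-BrM. It was 1.54-fold and 1.59-fold above 482N1 in B16F10-BrM and E0771-BrM, whose ranges overlapped. Hspd1, Hspe1 and Hspa9 made up 81.9% ± 0.321 of the mitochondrial sum in 482N1, 90.2% ± 0.417 in the melanoma line B16F10-BrM and 84.3% ± 0.682 in the breast cancer line E0771-BrM. Without these 3 genes the sum of the other 8 was 198 ± 4.42, 207 ± 2.61 and 246 ± 6.78 CPM, so the high mitochondrial sum of B16F10-BrM lay in the 3 main chaperones.

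The mitochondrial co-chaperones were mixed. Dnajc15, a J-domain protein of the import motor, had 14.3, 13.4 and 16.5 CPM in 482N1, 64.5, 62 and 57.1 CPM in B16F10-BrM and 87.8, 90.6 and 91.3 CPM in E0771-BrM, 6.11-fold above 482N1 (log2 fold change 2.61 ± 0.11, adjusted p = 1.29e-26). Dnaja3 (TID1), the main J-domain partner of Hspa9 in the matrix, was higher in 482N1, at 20.8 ± 2.29 CPM against 12.3 ± 2.11 and 12.4 ± 2.81 CPM in B16F10-BrM and E0771-BrM. Dnajc4 was highest in 482N1 as well, at 27.2 ± 0.52 CPM against 7.74 ± 1.85 and 17.5 ± 1.25 CPM. Dnajc28 had 37, 40 and 31 counts in 482N1 and 36, 22 and 40 in B16F10-BrM, but 0 in all 3 libraries of E0771-BrM. Taking 3 counts over the 3 libraries, or 0.124 CPM, as the limit that a count of 0 allows, Dnajc28 was at least 36.4-fold lower in E0771-BrM than in 482N1 and at least 30.3-fold lower than in B16F10-BrM, counting error only.

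The main reticulum chaperones were lowest in 482N1 together. All 4 HSP70, HSP110 and HSP90 genes of the reticulum, both lectin chaperones and all 4 Pdia genes were called higher in B16F10-BrM than in 482N1 (38.0% of all genes were), and 9 of these 10 were called higher in E0771-BrM than in 482N1 (37.7% of all genes), the exception being Pdia4. Hspa5 (BiP), the HSP70 of the reticulum, had 893, 855 and 952 CPM in 482N1, 1849, 1897 and 1892 CPM in B16F10-BrM and 2329, 2453 and 2227 CPM in E0771-BrM. Its log2 fold changes against 482N1 were 1.06 ± 0.07 and 1.38 ± 0.07 in B16F10-BrM and E0771-BrM (adjusted p = 1.63e-19 and 1.1e-23), and E0771-BrM also lay above B16F10-BrM without overlap. Hsp90b1 (GRP94), the HSP90 of the reticulum, had 734, 824 and 909 CPM in 482N1, 1535, 1497 and 1550.1 CPM in B16F10-BrM and 1691, 1783 and 1856 CPM in E0771-BrM, the same order. Hyou1 (GRP170) is a nucleotide exchange factor of Hspa5. It had 28, 31.4 and 31.8 CPM in 482N1, 114, 113 and 119 CPM in B16F10-BrM and 98.9, 88.3 and 87.8 CPM in E0771-BrM. It was 3.79-fold and 3.01-fold above 482N1, and highest in B16F10-BrM (log2 fold change against 482N1 1.92 ± 0.09, adjusted p = 3.88e-24).

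The lectin chaperones hold newly made glycoproteins. Calr had 622 ± 36 CPM in 482N1, 1087 ± 17.5 in the melanoma line B16F10-BrM and 924 ± 62.3 in the breast cancer line E0771-BrM, and Canx had 454 ± 21.3, 967 ± 29.3 and 875 ± 59.6 CPM. The difference of Calr between E0771-BrM and B16F10-BrM (-0.23 ± 0.07, adjusted p = 0.00206) was not called in the library B setting (-0.14, adjusted p = 0.186). Canx, not called in that comparison in the fit reported here (-0.14 ± 0.07, adjusted p = 0.0546), was called without library B of 482N1 (-0.14, adjusted p = 0.0451), without library B of E0771-BrM (-0.19, adjusted p = 0.0242) and with limma-voom (adjusted p = 0.0319), so its place relative to the threshold depended on the test. Hspa5, Hsp90b1, Calr and Canx made up 63.5% ± 1.68 of the reticulum sum in 482N1, 66% ± 0.438 in the melanoma line B16F10-BrM and 73.5% ± 0.83 in the breast cancer line E0771-BrM.

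The Pdia genes encode enzymes that form and reshuffle disulfide bonds. Pdia3 (ERp57), which works with the lectins, was 1.42-fold and 1.37-fold above 482N1 in B16F10-BrM and E0771-BrM, at 472 ± 33.4, 669 ± 36.5 and 648 ± 28.6 CPM. Pdia6 had 183, 175 and 172 CPM in 482N1, 385, 358 and 391 CPM in B16F10-BrM and 464, 429.8 and 447 CPM in E0771-BrM, again with 482N1 below both other lines. The step from B16F10-BrM to E0771-BrM, 0.24 ± 0.07, was not called in the library B setting (0.19, adjusted p = 0.087). Pdia4 (ERp72) was high in B16F10-BrM alone, at 232, 239 and 202 CPM against 98.5, 109 and 92.7 in 482N1 and 104, 121 and 113 in E0771-BrM. Its log2 fold change was 1.16 ± 0.08 between B16F10-BrM and 482N1 (adjusted p = 8.71e-18) and 0.17 ± 0.08 between E0771-BrM and 482N1 (adjusted p = 0.0546), and the last was called without library B of 482N1 (0.24, adjusted p = 0.014), without library A of E0771-BrM (0.23, adjusted p = 0.0238), without library C of B16F10-BrM (0.18, adjusted p = 0.044), with upper-quartile scaling (0.20, adjusted p = 0.0316) and with only the 2 lines in the fit (0.19, adjusted p = 0.0442). Pdia5 was low in 482N1, with 3.39 ± 0.226 CPM against 16.4 ± 2.39 and 19.6 ± 2.46 CPM in B16F10-BrM and E0771-BrM.

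**Figure D5:**
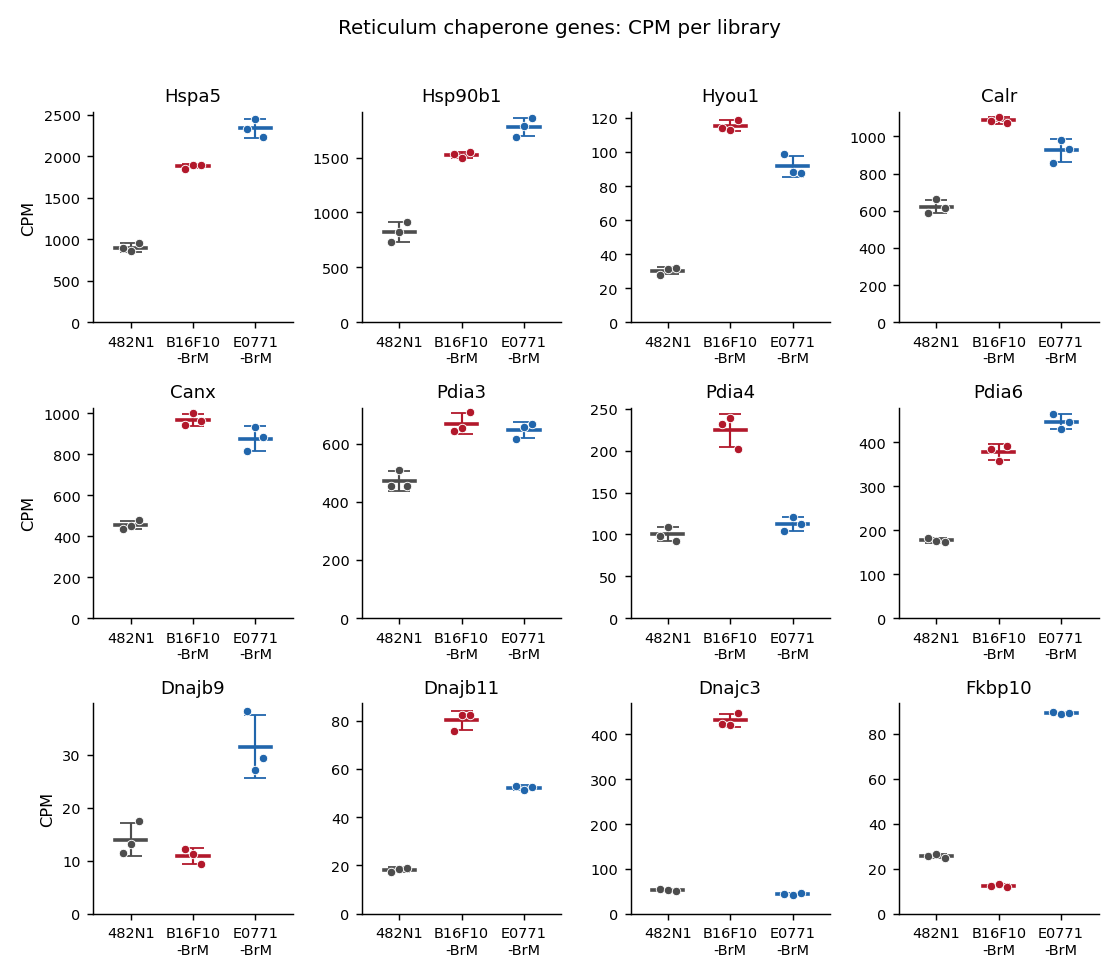
CPM (vertical axes, from 0, each gene on its own scale) of 12 reticulum chaperone genes in the 9 libraries by cell line (horizontal axis). Points are libraries, thick lines means and whiskers 1 SD (n = 3). Hspa5, Hsp90b1, Hyou1, Calr, Canx, Pdia3, Pdia6 and Dnajb11 were lowest in 482N1, Pdia4 and Dnajc3 were high in B16F10-BrM alone, and Dnajb9 and Fkbp10 were highest in E0771-BrM.

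The J-domain genes assigned to the reticulum, of which only some serve Hspa5, did not follow Hspa5 as a group. Of the 12, 6 were higher and 3 lower in B16F10-BrM relative to 482N1 (38.0% and 39.9% of all genes). In E0771-BrM, 3 were higher and 5 lower than in 482N1 (37.7% and 40.4% of all genes). Dnajc3 (P58IPK), which is also known to restrain the kinase PERK, had 54.4, 54 and 50.6 CPM in 482N1, 424, 422 and 449 CPM in B16F10-BrM and 43.9, 42.2 and 47.3 CPM in E0771-BrM. B16F10-BrM stood 8.14-fold above 482N1 (log2 fold change 3.02 ± 0.08, adjusted p = 1.04e-34) and 9.71-fold above E0771-BrM (log2 fold change of E0771-BrM against B16F10-BrM -3.28 ± 0.08, adjusted p = 1.44e-35). E0771-BrM was below 482N1 for this gene, by -0.25 ± 0.09 on the log2 scale (adjusted p = 0.00745). Dnajb11 (ERdj3), a soluble partner of Hspa5 for unfolded clients, had 17.2, 18.5 and 19.1 CPM in 482N1, 75.7, 82.3 and 82.1 CPM in B16F10-BrM and 52.9, 51.2 and 52.7 CPM in E0771-BrM, 4.38-fold and 2.86-fold above 482N1. Dnajb9 (ERdj4), which serves reticulum-associated degradation and represses the stress sensor IRE1, was highest in E0771-BrM instead, with 38.3, 27.1 and 29.4 CPM against 11.4, 13.2 and 17.5 in 482N1 and 12.3, 11.3 and 9.32 in B16F10-BrM (log2 fold change against B16F10-BrM 1.52 ± 0.16, adjusted p = 7.59e-12). Dnajc22, a membrane J-domain protein, was lowest in E0771-BrM, at 1.94 ± 0.297 CPM against 5.33 ± 0.709 in 482N1 and 3.73 ± 0.223 in B16F10-BrM.

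The Fkbp genes of the reticulum, several of which serve collagen folding, had their widest differences in E0771-BrM. Fkbp10 (FKBP65), a collagen chaperone, had 25.7, 26.8 and 24.8 CPM in 482N1, 12.5, 13.3 and 11.8 CPM in B16F10-BrM and 89.6, 88.9 and 89.5 CPM in E0771-BrM, 7.13-fold above B16F10-BrM (log2 fold change 2.83 ± 0.11, adjusted p = 1.48e-27). Fkbp14 (FKBP22), another prolyl isomerase for collagen, had 67, 70 and 49 counts in 482N1 and 115, 110 and 127 in B16F10-BrM but 0 in all 3 libraries of E0771-BrM. It was at least 62.7-fold lower in E0771-BrM than in 482N1 and at least 109-fold lower than in B16F10-BrM, against the same limit of 3 counts over the group. Fkbp9 was highest in B16F10-BrM, with 249, 275 and 273 CPM against 85.2 ± 3.02 in 482N1 and 92.6 ± 3.92 in E0771-BrM. Fkbp7 was lowest in E0771-BrM, with 4.91 ± 0.34 CPM against 19.2 ± 0.794 in 482N1 and 13.3 ± 1.84 in B16F10-BrM.

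The unfolded protein response acts on chaperone promoters through the reticulum stress element, bound by the factors ATF6 and NF-Y (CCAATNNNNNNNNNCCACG, or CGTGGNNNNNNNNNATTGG on the other strand). It was searched in the same windows, without overlap with the heat shock element. The element was in 6 of the 23 reticulum chaperone genes with a window (26.1%), Hspa5, Hsp90b1, Calr, Canx, Pdia6 and Dnajc3. None of the 43 cytosolic and 8 mitochondrial ones held it. It was in 37 of 27025 genes (0.137%) and in 16 of the 8578 genes tested with a window (0.187%). As the element is known from chaperone promoters, its share among these genes is no independent evidence. The stretches below, printed 5′ to 3′ along each gene with the element in capitals, show it in either orientation and, for Hsp90b1, as a pair. For Hspa5, where the match lies in an annotated exon, only 5 bases on either side are shown, as in the stretches above.
Hspa5 (GRCm38.p6 chr2:34772020-34772048, plus strand): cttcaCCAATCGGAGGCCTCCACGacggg
Hsp90b1 (GRCm38.p6 chr10:86705510-86705694, minus strand): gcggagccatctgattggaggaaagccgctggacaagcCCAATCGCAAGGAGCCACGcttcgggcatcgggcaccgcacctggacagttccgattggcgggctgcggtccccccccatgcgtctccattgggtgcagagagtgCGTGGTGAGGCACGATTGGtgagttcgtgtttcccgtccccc
Calr (GRCm38.p6 chr8:84847035-84847133, minus strand): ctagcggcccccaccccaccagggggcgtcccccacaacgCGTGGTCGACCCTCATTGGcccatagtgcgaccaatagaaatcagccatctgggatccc
Canx (GRCm38.p6 chr11:50325760-50325858, minus strand): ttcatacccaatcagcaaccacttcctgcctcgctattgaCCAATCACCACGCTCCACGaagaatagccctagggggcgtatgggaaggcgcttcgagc
Pdia6 (GRCm38.p6 chr12:17266451-17266544, plus strand): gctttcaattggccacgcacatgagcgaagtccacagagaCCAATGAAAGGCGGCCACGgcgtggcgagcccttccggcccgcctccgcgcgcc
Dnajc3 (GRCm38.p6 chr14:118937787-118937885, plus strand): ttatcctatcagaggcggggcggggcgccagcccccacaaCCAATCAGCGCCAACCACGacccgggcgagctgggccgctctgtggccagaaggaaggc

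All 6 carriers were called higher in B16F10-BrM than in 482N1 (38.0% of all genes were). In E0771-BrM, 5 of the 6 were called higher than in 482N1 (37.7% of all genes were), while Dnajc3 was lower there. Of the 17 reticulum chaperone genes with a window and no match, 9 were higher and 5 lower in B16F10-BrM, and 5 were higher and 7 lower in E0771-BrM, than in 482N1. Between E0771-BrM and B16F10-BrM the carriers were split, with Hspa5, Hsp90b1 and Pdia6 called higher, Calr and Dnajc3 called lower and Canx not called. Among the further folding genes described below, 3 also held the element, Creld2, Ero1b and Syvn1. Of these, Creld2 was called higher in B16F10-BrM than in 482N1, while Ero1b (0.47 ± 0.34, adjusted p = 0.201) and Syvn1 (-0.07 ± 0.16, adjusted p = 0.68) were not, and all 3 were called higher in E0771-BrM than in 482N1. A match is a description of letters in a window, and whether any factor was bound there was not tested.

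Folding genes whose symbols fall outside the chaperone names were followed from lists made for this purpose. Of 24 further reticulum folding factors, 12 were higher and 5 lower in B16F10-BrM relative to 482N1 (38.0% and 39.9% of all genes). In E0771-BrM, 15 were higher and 4 lower than in 482N1 (37.7% and 40.4% of all genes). Sdf2l1, a partner of Dnajb11, had 6.32, 5.9 and 7.1 CPM in 482N1, 56.6, 45.7 and 52.1 CPM in B16F10-BrM and 32.7, 25.4 and 27.2 CPM in E0771-BrM, 7.99-fold and 4.42-fold above 482N1, the order of Dnajb11 itself. Creld2, a disulfide isomerase whose window also holds the reticulum stress element, had 11.2 ± 1.17, 41.4 ± 3.42 and 29.9 ± 2.06 CPM. Serpinh1 (HSP47), the collagen chaperone, was highest in B16F10-BrM, at 82.8 ± 12.5 CPM against 16.4 ± 3.03 in 482N1 and 22.1 ± 0.927 in E0771-BrM, unlike Fkbp10. P4hb (PDI), the most abundant isomerase of the reticulum in many cells, was nearly level, at 386 ± 44.8, 381 ± 2.02 and 331 ± 14.2 CPM. Its lower level in E0771-BrM than in 482N1 (-0.22 ± 0.07, adjusted p = 0.00593) was lost without library C of 482N1 (-0.13, adjusted p = 0.131), and that against B16F10-BrM (-0.20 ± 0.07, adjusted p = 0.0119) without library B of E0771-BrM (-0.17, adjusted p = 0.064).

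Of 9 regulators of the unfolded protein response, 4 were higher and 4 lower in B16F10-BrM relative to 482N1 (38.0% and 39.9% of all genes). In E0771-BrM, 4 were higher and 1 lower than in 482N1 (37.7% and 40.4% of all genes). Atf4, the transcription factor of the PERK branch, had 236, 244 and 296 CPM in 482N1, 635, 573 and 532 CPM in B16F10-BrM and 1278, 1128 and 1054 CPM in E0771-BrM. Ern1, which encodes the sensor IRE1, had 20, 19.1 and 19.4 CPM in 482N1, 11.6, 10.7 and 10.6 CPM in B16F10-BrM and 51.3, 51.4 and 52.5 CPM in E0771-BrM, and Dnajb9 was likewise highest in that line. Atf6b was higher in B16F10-BrM and E0771-BrM, at 64.5 ± 3.67 and 73.5 ± 4.62 CPM against 22.7 ± 2.52 in 482N1. Atf6, its relative named above, was lower in B16F10-BrM than in 482N1 (27.1 ± 0.749 against 38.3 ± 2.18 CPM, log2 fold change -0.50 ± 0.11, adjusted p = 7.52e-05) and not called between E0771-BrM (42.5 ± 3.03 CPM) and 482N1 (0.15 ± 0.11, adjusted p = 0.193). Library C of 482N1 stood apart for the stress gene Ddit3 (CHOP), with 122 CPM against 44.9 and 37.1 in libraries A and B, and for the oxidase Ero1a, with 919 CPM against 525 and 358. For Hspa5 this library lay at 952 CPM, still below every library of the other lines. Ero1a was highest in 482N1, at 601 ± 288 CPM against 189 ± 24.2 in B16F10-BrM and 207 ± 9.22 in E0771-BrM. It was called lower in both than in 482N1, with log2 fold changes of -1.67 ± 0.34 and -1.53 ± 0.34.

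Of 21 further cytosolic co-chaperones, 11 were higher and 8 lower in B16F10-BrM relative to 482N1 (38.0% and 39.9% of all genes). In E0771-BrM, 10 were higher and 8 lower than in 482N1 (37.7% and 40.4% of all genes). Ahsa1, which speeds the ATPase of HSP90, had 17.7 ± 2.77, 48.4 ± 4.29 and 41.2 ± 0.635 CPM in 482N1, B16F10-BrM and E0771-BrM. Its small difference between E0771-BrM and B16F10-BrM (-0.23 ± 0.11, adjusted p = 0.0487) was lost without library A (adjusted p = 0.253) or B (adjusted p = 0.0508) of B16F10-BrM, without library A (adjusted p = 0.11), B (adjusted p = 0.0775) or C (adjusted p = 0.0826) of E0771-BrM, and with DESeq2 (adjusted p = 0.0716). Stip1 (HOP), which joins HSP70 to HSP90, was highest in E0771-BrM, at 259 ± 10.1 CPM against 178 ± 2.95 in 482N1 and 146 ± 18.5 in B16F10-BrM. Vbp1, a subunit of the prefoldin complex that feeds CCT, was also highest in E0771-BrM, at 192 ± 9.25 CPM against 54.5 ± 4.61 and 72.4 ± 8.24, while Sugt1, an HSP90 co-chaperone, was lowest there, at 75.8 ± 6.13 CPM against 161 ± 6.36 and 231 ± 3.07. Of 11 further mitochondrial chaperones and proteases, 2 were higher and 6 lower in B16F10-BrM relative to 482N1. In E0771-BrM, 5 were higher and 3 lower than in 482N1, beside the same shares of all genes. Trap1, the mitochondrial HSP90, had 48.4 ± 6.82, 43.8 ± 1.12 and 57.5 ± 5.45 CPM. Its difference between E0771-BrM and 482N1 (0.25 ± 0.10, adjusted p = 0.0266) was lost without library B (adjusted p = 0.129) or C (adjusted p = 0.107) of 482N1 or library A of E0771-BrM (adjusted p = 0.178). Clpb, a disaggregase, was highest in E0771-BrM at 71.2 ± 5.18 CPM against 50.5 ± 2.45 in 482N1 and 33.2 ± 2.93 in B16F10-BrM, Clpp, a matrix protease, had 37.2 ± 4.25 CPM in 482N1 against 61.9 ± 3.41 and 77.7 ± 6.4 in B16F10-BrM and E0771-BrM, and Hscb, a J-domain protein for iron-sulfur clusters, was highest in 482N1 at 20.2 ± 2.02 CPM against 10.1 ± 0.427 and 8.82 ± 0.793.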

How the data were processed

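The deposited table holds raw counts per gene symbol for 9 libraries, counted by the authors. Per the submitters' processing notes, FastQC, TopHat2 2.0.10, Bowtie 1.0.0, SAMtools 0.1.19, Cufflinks 2.2.1 and the GRCm39 build were used. Per the labels' protocols, the libraries were stranded and made from poly(A) RNA. The counting program, annotation and selection of the 11046 genes are not given in the sources used here, so the effect of shared reads on near copies is unknown.

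From the counts, edgeR 4.0.16 in R 4.3.3 was run with its expression filter (11037 genes kept), TMM scaling and a robust quasi-likelihood fit of the 3 lines over all 9 libraries. Standard errors are the log2 fold change divided by the square root of F. limma 3.58.1 (voom), DESeq2 1.42.0, other scalings and filters, a 2-fold test and leaving out libraries were alternatives. Scripts were tested on simulated data. Replicate pairs differed beyond counting noise (chi-square per degree of freedom 3.92 to 7.56), and all libraries were kept. This excess does not show whether the libraries were separate cultures. Exon lengths came from GENCODE M21 and promoters from RefSeq, both GRCm38. No coordinates were converted.

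The members, lists and tests were chosen with earlier results of these data known. Named genes were the 10 highest and 10 lowest called members per comparison whose libraries did not overlap, a fixed panel, members called nowhere, and up to 3 genes per further list with Tcp1, Trap1, P4hb and Stip1. Dnajb6, Hspbp1, Hspa4, Atf6, Ero1b, Syvn1, Ddit3 and Ero1a were named after their values were seen. The values of 1 gene are not reported here.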

Additional observations from a re-analysis of the deposited data

How the results depend on the processing

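Against a 2-fold change instead of no change (glmTreat), 19 chaperone genes were called higher and 9 lower in B16F10-BrM than in 482N1, 18 higher and 11 lower in E0771-BrM than in 482N1, and 10 higher and 8 lower in E0771-BrM than in B16F10-BrM. No other alternative that was run moved any of these 6 counts by over 1.5 times. Leaving out each library in turn gave 47 to 50 and 30 to 32 genes in the first comparison, 47 to 48 and 30 to 33 in the second, and 37 to 40 and 34 to 37 in the third, higher and lower. With the library letter as a replicate block the counts were 50 and 31, 48 and 32, and 39 and 37. Deviations of same-letter libraries of different lines correlated at -0.00992 to 0.0898, and those of different letters at -0.0752 to 0.037. Such small correlations cannot decide whether the letters pair the libraries. In the library B setting, where the lone libraries of 482N1 and E0771-BrM are assumed to vary like the B16F10-BrM ones, the counts were 45 and 30, 45 and 30, and 34 and 33. Over the named genes, no alternative reversed a called direction: 4498 values kept their side of the threshold, 147 lost a call, 110 of them in the 2-fold test, and 33 gained one. Besides the genes named so in the results, calls were gained when 1 library was left out by Hsf2, Dnajb9, Dnajc22, Bag6 and Hspb8 (each with 482N1 above B16F10-BrM) and by Hspa1b and Pdia5 (higher in E0771-BrM than in B16F10-BrM). The median of the cytosolic genes between B16F10-BrM and 482N1 (-0.016) did not keep its sign, with 0.045 under upper-quartile scaling, nor did that of the mitochondrial genes between E0771-BrM and B16F10-BrM (0.030), with -0.008 under upper-quartile scaling and -0.043 in the library B setting. Depth limits the genes with few counts, such as Hspb8, Dnajc12 and Dnajc27, and reads shared with its near copy limit Hspa1b.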
